A study of Mus musculus with 9 samples.

Results

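The genes described here are Zfp352, Trim43a, Trim43b and Trim43c, grouped under the name of 2-cell stage genes. The name is a label and not a result of these data. Trim43a was at 389.1 to 450.0 FPKM in WT embryos of about the late blastocyst, so its RNA does not mark the 2-cell stage here. They were chosen by name, and 4 of the 7 symbols asked for were among the 16070 genes listed for these embryos. Zscan4c, Zscan4d and Zscan4f matched no listed gene and were not analysed here. The names were put forward with the values of these 9 libraries known. The levels of the 4 genes, and the limma results printed for them, are therefore a description and not a test.

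RNA was measured in mouse embryos of strain C57BL/6 that were cultured in vitro and sampled 4.5 days after microinjection, about the age of the late blastocyst. The 9 libraries formed 3 groups of 3, titled WT (wild type), H3R17H (arginine 17 of histone H3 replaced with histidine) and Carm1-/- (loss of CARM1, the methyltransferase that modifies this arginine). All 3 groups, WT included, carry the label of 4.5 days after microinjection. The labels do not say how many embryos went into a library, the preparation is described both as embryo and as single cell, and nothing names separate litters or founders, so spread and p-values cover differences between these libraries only. The values are FPKM, fragment numbers scaled by transcript length and library size, and the depth behind them is unknown.

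In the mouse the embryonic genome is first transcribed in a major wave at the 2-cell stage. The homeodomain factor DUX and the repeat-derived promoters of MERVL retroviruses drive a short burst of genes there, among them the Zscan4, Tdpoz, Tcstv, Usp17l and Pramef families and Zfp352. The burst ends before the blastocyst forms, and a rare state of cultured embryonic stem cells that turns these genes on again is called 2-cell-like. Zfp352 encodes a zinc-finger protein of early embryos. The Trim43 genes encode TRIM-family proteins, which typically act as ubiquitin ligases, and are known from preimplantation embryos.

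The titles and the libraries disagree on which embryos lack Carm1. Carm1 was at 8.86, 7.08 and 6.65 FPKM among WT libraries, against 1.88, 0.02 and 1.22 FPKM in the libraries titled H3R17H, and 6.44, 12.68 and 9.52 FPKM in those titled Carm1-/-. The column names call the libraries titled H3R17H "Carm" and those titled Carm1-/- "Hist". Groups are therefore named as the libraries titled H3R17H and the libraries titled Carm1-/-, and each direction below refers to the title alone. Y-linked transcripts (the summed FPKM of Ddx3y, Eif2s3y, Uty and Kdm5d) stood at 28.1 to 36.6 in all 3 WT libraries and in replicate 1 of each other group, and at 0.00796 or less in the remaining 4. Markers of trophectoderm, the outer layer of the blastocyst, summed to 5540 to 8340 FPKM in WT, 1620 to 4570 in the libraries titled H3R17H and 2010 to 8800 in those titled Carm1-/-. Krt8 and Krt18 made up most of these sums. In replicates 1 to 3 titled Carm1-/- Krt8 was at 4025, 845.8 and 1071 FPKM. Of the 7 tested for a difference from WT, 6 were lower and Tfap2c was higher in both titles. Of all tested genes 47.7% were higher in H3R17H and 46.3% in Carm1-/-. Mean Tfap2c was 32.03 FPKM in WT, 48.08 in H3R17H and 34.55 in Carm1-/-. All 8 trophectoderm markers, all 6 of primitive endoderm and all 6 of epiblast were listed, so markers of the 3 blastocyst lineages were measured. Those of primitive endoderm summed to 160 to 210 FPKM in WT, 134 to 172 in H3R17H and 81.8 to 163 in Carm1-/-. Epiblast sums were 132 to 194 FPKM in WT, 139 to 187 in H3R17H and 112 to 247 in Carm1-/-. In whole embryos, fewer cells of a kind and less RNA per cell cannot be told apart. None of the 6 cumulus cell markers was listed. The part of these differences in the results below was not tested.

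The Trim43 genes are near-copies of one another, which limits how well reads can be assigned among them. On GRCm38, in the GENCODE M21 annotation, Trim43a lies on chromosome 9 at 88580891 to 88588819 (plus strand), Trim43c at 88839164 to 88848190 (plus strand) and Trim43b at 89084624 to 89092835 (minus strand). Each is a protein-coding gene of 7 exons in its longest transcript. Their coding sequences were 97.99% identical between Trim43a and Trim43b, 97.61% between Trim43b and Trim43c and 96.64% between Trim43a and Trim43c. The first 90 coding bases are shown from the GENCODE transcripts because they make this visible, with capitals at the 3 positions where the genes are not all alike.
Trim43a: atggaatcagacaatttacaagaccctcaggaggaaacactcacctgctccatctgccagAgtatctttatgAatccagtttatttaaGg
Trim43b: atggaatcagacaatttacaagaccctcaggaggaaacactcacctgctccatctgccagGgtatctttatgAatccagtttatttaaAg
Trim43c: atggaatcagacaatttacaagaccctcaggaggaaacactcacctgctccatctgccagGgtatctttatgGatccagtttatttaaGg

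Many reads from these genes would thus fit more than 1 of them. Of all windows of 50 bases in the longest transcript, 48.1% for Trim43a, 48.8% for Trim43b and 59.3% for Trim43c occurred without a mismatch in a transcript of another gene. For windows of 100 bases the shares were 14.8%, 20.9% and 32.1%. Not given in the sources used here were the read length and how the authors divided reads that match several genes. The level of any single Trim43 gene is uncertain to that extent, most of all for Trim43c, which had the fewest windows of its own and also shared many with 9330159M07Rik. Zfp352, on chromosome 4 at 90218820 to 90225702 (plus strand, 2 exons), shared 7.09% of its 50-base windows with other genes, nearly all with its pseudogene Zfp353-ps, and 0.64% of its 100-base windows.

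Zfp352 has an unusual sequence just upstream. RefSeq (GRCm38.p6) gave a promoter for Zfp352 and Trim43a, 2 of the 4 genes. The 250 bases before the start of Zfp352, chr4:90218570-90218819 on the plus strand, hold a tandem repeat over most of their length. The bases nearest the start are not part of it. The sequence is shown because the repeat unit can be read directly, with each TAATCC in capitals.
Zfp352: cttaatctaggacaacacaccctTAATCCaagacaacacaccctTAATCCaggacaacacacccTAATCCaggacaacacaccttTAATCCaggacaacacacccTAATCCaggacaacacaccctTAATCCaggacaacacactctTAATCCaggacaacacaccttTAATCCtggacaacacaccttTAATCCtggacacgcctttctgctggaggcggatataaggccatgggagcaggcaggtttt

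TAATCC is the core that homeodomains of the bicoid class, such as OTX2, recognise. It was searched for on both strands after the sequence had been read, and it occurred 9 times before Zfp352, each time on the strand of the gene. Of 32851 windows of the same length before RefSeq starts, 6.25% held it at least once and 1 window, that of Zfp352, held it 5 or more times. The Trim43a window held none. GATTNAATC, the centre of a DUX motif, was in neither window and in 0.247% of all windows. TGCACAC, a motif bound by ZSCAN4, was likewise in neither and in 3.67% of all. These are matches of letters, not measured binding.

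Trim43a was abundant in every embryo library and moderately higher in both groups of edited embryos. It stood at 449.9, 450.0 and 389.1 FPKM among WT libraries, against 541.1, 745.2 and 568.6 FPKM in the libraries titled H3R17H and 472.7, 617.2 and 719.2 FPKM in those titled Carm1-/-. All 6 edited libraries lay above all 3 WT libraries, replicate 1 titled Carm1-/- by the least. The means were 429.7 ± 35.1, 618 ± 111 and 603 ± 124 FPKM (SD, n = 3). The difference from WT in log2(FPKM + 1), from a limma fit over all genes, was 0.51 (SE 0.21) for the libraries titled H3R17H and 0.47 (SE 0.21) for those titled Carm1-/-. Between the edited groups it was -0.04 (SE 0.21), within the spread.

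Trim43b was far above WT in all libraries titled H3R17H and in 2 of the 3 titled Carm1-/-. It was at 10.1, 5.01 and 1.13 FPKM among WT libraries, against 128.7, 192.5 and 145.4 FPKM in the libraries titled H3R17H. Every library titled H3R17H was at least 100 FPKM above every WT library. In the libraries titled Carm1-/- it was at 8.93, 177.1 and 306.0 FPKM. Replicate 1 of that title lay within the WT range, while replicates 2 and 3 lay with the libraries titled H3R17H or above them. The means were 5.41 ± 4.5, 156 ± 33.1 and 164 ± 149 FPKM (SD, n = 3), a ratio to WT of 28.7 for H3R17H and 30.3 for Carm1-/-. The differences in log2(FPKM + 1) were 4.89 (SE 1.06) and 3.97 (SE 1.06). The latter was 5.49 without replicate 1 titled Carm1-/-, 3.4 without replicate 2 and 3.01 without replicate 3 of that title. Replicate 1 titled H3R17H carried Y-linked transcripts as WT did, and its 128.7 FPKM was above the highest WT value of 10.1, whereas replicate 1 titled Carm1-/-, which carried them too, held 8.93 FPKM. The other 4 high libraries lacked Y-linked transcripts. Xist, an RNA of X inactivation, did not exceed 0.43 FPKM in any WT library. Replicate 1 titled H3R17H differed from WT here, with 4.84 FPKM of Xist beside its Y-linked transcripts. Replicates 2 and 3 of that title held 28.23 and 16.58 FPKM. Replicates 1 to 3 titled Carm1-/- held 0.26, 32.54 and 18.88 FPKM. Xist was thus above WT in the same 5 libraries as Trim43b. The part of embryo sex in the Trim43b levels was not tested.

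Trim43c was near absent in WT and uneven among the edited embryos. It was at 0.26, 0.99 and 0.26 FPKM among WT libraries, against 16.75, 0.66 and 1.94 FPKM in the libraries titled H3R17H and 0.14, 67.31 and 24.59 FPKM in those titled Carm1-/-. Replicate 1 titled H3R17H and replicates 2 and 3 titled Carm1-/- were high, and the groups overlapped in both comparisons with WT. The differences in log2(FPKM + 1) were 1.59 (SE 1.3) and 3.1 (SE 1.3). Without replicate 1 titled H3R17H the former was 0.59. The latter was 4.83 without replicate 1 titled Carm1-/- and 1.88 without replicate 2 of that title.

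Zfp352 was listed at 0 in all 3 WT libraries. It was at 57.98, 0.45 and 0 FPKM in the libraries titled H3R17H and at 0, 2.62 and 1.22 FPKM in those titled Carm1-/-. A single library, replicate 1 titled H3R17H, held nearly all of the signal, and the next highest was replicate 2 titled Carm1-/-. No fold is given because WT was listed at 0. Without replicate 1 titled H3R17H the remaining 2 libraries of that title held at most 0.45 FPKM.

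**Figure D1:**
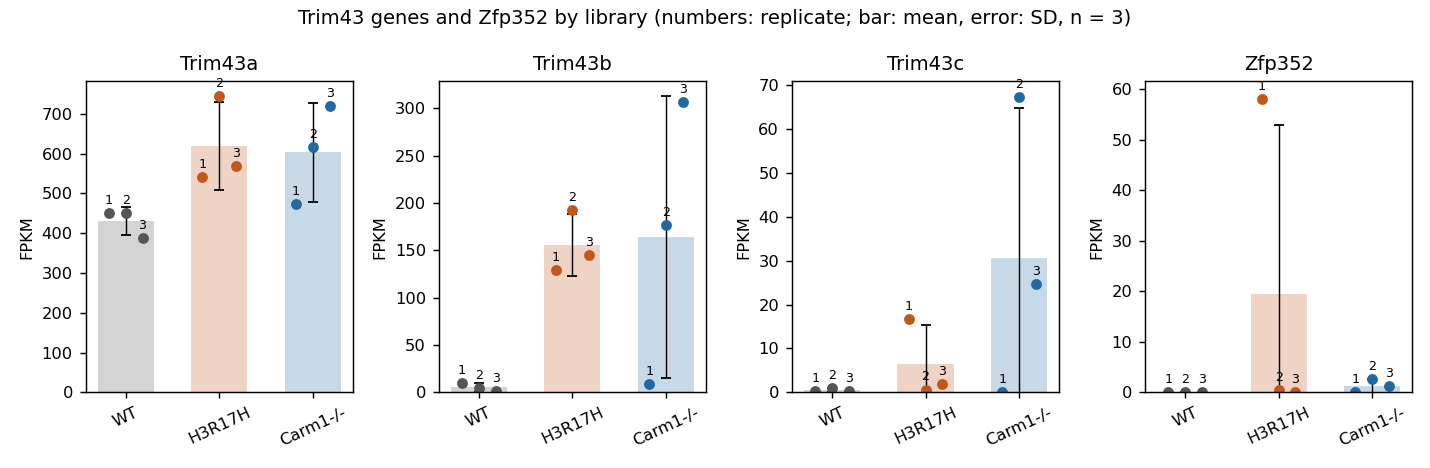
FPKM of Trim43a, Trim43b, Trim43c and Zfp352 (vertical axes, linear, scaled per gene) in the 3 groups, with points for libraries numbered by replicate, bars for means and error bars for SD (n = 3, drawn down to 0 at most). Trim43b lies at 128.7 to 192.5 FPKM in the libraries titled H3R17H against at most 10.1 in WT, while Zfp352 reaches 57.98 FPKM in 1 library alone.

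Taking the 3 Trim43 genes together lessens the effect of how reads were divided among them. Their summed level was 390 to 460 FPKM in WT, 687 to 938 FPKM in the libraries titled H3R17H, and 482, 862 and 1050 FPKM in replicates 1 to 3 titled Carm1-/-. Trim43a held 97.8% to 99.6% of the sum in WT and 98.1% in replicate 1 titled Carm1-/-. In the other 5 libraries it held 68.5% to 79.4%. Trim43b supplied 0.289% to 2.19% of the sum in WT, 18.7% to 20.5% in the libraries titled H3R17H, and 1.85%, 20.6% and 29.1% in replicates 1 to 3 titled Carm1-/-. Trim43c supplied at most 0.218% in WT and 7.81% at its highest, in replicate 2 titled Carm1-/-.

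**Figure D2:**
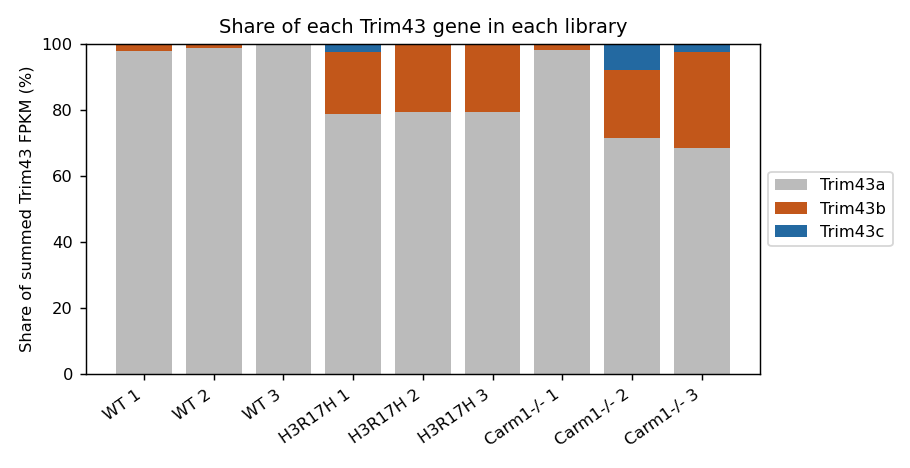
Share of the summed Trim43 FPKM (vertical axis, %) held by Trim43a, Trim43b and Trim43c in each of the 9 libraries (horizontal axis). Trim43b holds 18.7% to 29.1% in 5 of the 6 edited libraries and at most 2.19% in the 3 WT libraries and replicate 1 titled Carm1-/-.

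Among the Trim43 genes the group means kept 1 order in all 3 groups. Trim43a was highest, followed by Trim43b and Trim43c, and in WT the neighbouring levels in that order did not overlap. Zfp352 stood below Trim43c in 8 of the 9 libraries, the exception being replicate 1 titled H3R17H (57.98 against 16.75 FPKM).

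All 4 genes passed the filter on low values (1 FPKM or more in 3 or more libraries), Zfp352 and Trim43c through edited libraries only, since WT never reached 1 FPKM for either. Of the 4, Trim43a and Trim43b were higher without overlap in the libraries titled H3R17H than in WT, where 13.3% of the 11850 tested genes were higher and 15.6% lower in this way. In Carm1-/- against WT Trim43a alone was, where 6.91% of tested genes were higher and 9.71% lower. Between the edited groups 0 of the 4 were without overlap, beside 5.13% higher and 6.07% lower, and 1 of the 4 (Trim43c) had a log2 difference above 0, beside 49% of all. In limma at an adjusted p of 0.05, 0 of the 4 were called in any of the 3 comparisons, and 0% of all tested genes were called. At an unadjusted p under 0.05, 2 of the 4 were higher in H3R17H against WT (6.41% of all were) and 3 of the 4 in Carm1-/- against WT (5.25% of all), and 0 between the edited groups (4.09% higher and 4.12% lower).

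Replicate 1 titled Carm1-/- lay in or near the WT range for all 4 genes. Without it limma called Trim43b and Trim43c in Carm1-/- against WT, where 2.5% of all genes were called higher and 2.14% lower, and Trim43b in H3R17H against WT, where 0.574% were called higher and 0.481% lower. Between the edited groups it then called 0 of the 4, beside 0.0253% and 0.0591%. With only the compared groups in the fit, Trim43b was called in H3R17H against WT, beside 0.945% of all genes called higher and 1.08% lower. This library is singled out because it lay near WT for these same genes, so leaving it out favours such calls. Trim43c passed the filter through edited libraries only. Since these contrasts also helped to choose the genes, nothing is read from the counts.

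The 7 listed neighbours of the Trim43 cluster differed among themselves. Gm40542, a long non-coding RNA that lies inside the span of Trim43b (RefSeq, GRCm38.p6, 89087482 to 89088408), was at 0.44, 0.47 and 0 FPKM among WT libraries, 5.92, 8.08 and 6.24 FPKM in the libraries titled H3R17H and 0, 10.5 and 4.65 FPKM in those titled Carm1-/-. It was high in the same 5 libraries as Trim43b. Whether it overlaps an exon of Trim43b was not checked, and the strand setting of the counting is unknown. Its reads may thus not be separate from those of Trim43b. Mthfsl, which lies between Trim43a and Trim43c, was at 5.22, 6.17 and 3.27 FPKM among WT libraries, 8.94, 8.47 and 6.18 FPKM in H3R17H and 5.32, 14.33 and 10.64 FPKM in Carm1-/-. Gm40542 and Mthfsl were above WT without overlap in H3R17H only, Mthfsl by a small margin (6.18 against 6.17 FPKM). Mthfs, the next of these beyond Trim43b, was at 8.72 to 10.05 FPKM in WT, at 19.35, 25.72 and 10.22 FPKM in H3R17H and at 11.24, 35.32 and 10.17 FPKM in Carm1-/-, above WT without overlap in both, by a small margin in replicate 3 of each. Syncrip, Snhg5 and Tmed3 overlapped between WT and both edited groups. Zfp949, a zinc-finger gene before Trim43a, was lower without overlap in both edited groups, with 12.48 to 20.73 FPKM in WT, 8.57 to 11.8 FPKM in H3R17H and 5.1 to 7.12 FPKM in Carm1-/-. Of all tested genes, 13.3% were higher and 15.6% lower than WT without overlap in H3R17H, and 6.91% and 9.71% in Carm1-/-. Separation of this kind was thus common, and nothing about the locus is read from it.

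The wider 2-cell programme was read from a list of 73 other symbols, of which 42 were listed. In WT 12 to 14 of the 42 reached 1 FPKM. In replicates 1 to 3 titled H3R17H 33, 18 and 13 did, and in those titled Carm1-/- 12, 25 and 17 did. Over the whole table the libraries were alike in this respect, with 10566 to 11005 genes at 1 FPKM or more. The same 2 libraries that led for Zfp352 thus led here: 23 of the 42 genes had their highest value in replicate 1 titled H3R17H and 11 in replicate 2 titled Carm1-/-. Of all tested genes 11.6% and 16.6% had their highest value in these libraries. Those shares cover only genes that passed the filter on low values, as 19 of the 42 did, so the sets are not alike. Among the rest were genes such as AF067061, listed above 0 only in replicate 1 titled H3R17H (2.79 FPKM).

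Some genes of the list were high in few libraries. Tcstv3, of a 2-cell specific family, was at 0, 0.3 and 0 FPKM among WT libraries, against 124.5, 0 and 0.91 FPKM in the libraries titled H3R17H and 0, 4.83 and 1.71 FPKM in those titled Carm1-/-. AF067063, also of the 2-cell programme, was at 2.22, 0.82 and 2.36 FPKM among WT libraries, 92.31, 6.1 and 0.74 FPKM in H3R17H and 3.23, 39.87 and 0.57 FPKM in Carm1-/-. Pramef25, of the PRAME-like family, was at 51.81 FPKM in replicate 1 titled H3R17H, at 2.83 FPKM in replicate 2 of that title and at 0.19 FPKM or less elsewhere. These 3 genes, as Zfp352, were highest in replicate 1 titled H3R17H, and their groups overlapped with WT.

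Other genes of the list were above WT in all libraries of a title, without passing the threshold. Sp110, a nuclear body protein, was at 12.32, 6.35 and 18.09 FPKM among WT libraries, against 170.2, 61.17 and 37.53 FPKM in the libraries titled H3R17H and 16.06, 174.3 and 32.43 FPKM in those titled Carm1-/-. Its libraries titled H3R17H lay above WT without overlap, while those titled Carm1-/- overlapped with WT. The H3R17H difference was 2.59 (SE 0.79) in log2(FPKM + 1), with an adjusted p of 0.243 in limma that ranged from 0.0493 to 0.646 over the alternatives. Tdpoz2, of a family with TRAF and BTB domains, was at 2.65, 8.34 and 5.77 FPKM among WT libraries, 15.22, 16.82 and 16.31 FPKM in H3R17H and 8.71, 41.83 and 16.81 FPKM in Carm1-/-, with all 6 edited libraries above WT. Its differences were 1.48 (SE 0.51; limma adjusted p = 0.273, 0.0669 to 0.646 over the alternatives) and 1.67 (SE 0.51; limma adjusted p = 0.299, 0.0343 to 0.677, with 0.0343 without replicate 1 titled Carm1-/-). The predicted gene Gm3139 was at 98.3 ± 13.5 FPKM in WT, 236.5 ± 42.7 FPKM in H3R17H and 181.6 ± 82.6 FPKM in Carm1-/- (SD, n = 3), again with all edited libraries above WT and with differences of 1.25 (SE 0.29; limma adjusted p = 0.212, 0.0355 to 0.646 over the alternatives) and 0.8 (SE 0.29; limma adjusted p = 0.365, 0.0777 to 0.724). With only the groups compared in the fit, Gm3139 and Sp110 passed in H3R17H against WT.

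Arg2, an arginase, and Ddit4l, an inhibitor of mTOR signalling, differed from WT by 1.26 (SE 0.58) and 0.98 (SE 0.45) in H3R17H and by 0.75 (SE 0.58) and 0.97 (SE 0.45) in Carm1-/-. Their adjusted p in limma was 0.361 and 0.36, then 0.629 and 0.44. The 4 remaining genes named by abundance did not pass the threshold either. Eif1a, a translation initiation factor, differed by -0.29 (SE 0.22) and -0.51 (SE 0.22), and P4ha2, a prolyl hydroxylase of collagen, by -0.41 (SE 0.28) and -0.12 (SE 0.28). Eif1a was below WT (84.45 to 101.92 FPKM) without overlap in H3R17H (73.7 to 79.68) and in Carm1-/- (50.49 to 81.93). P4ha2 was below WT (56.45 to 76.39 FPKM) without overlap in H3R17H only (45.55 to 49.73). Of all tested genes 15.6% in H3R17H and 9.71% in Carm1-/- were lower in this way. D5Ertd577e differed by 0.46 (SE 0.42) and 0.34 (SE 0.42), and Zfp54 by -0.02 (SE 0.85) and -0.82 (SE 0.85).

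**Figure D3:**
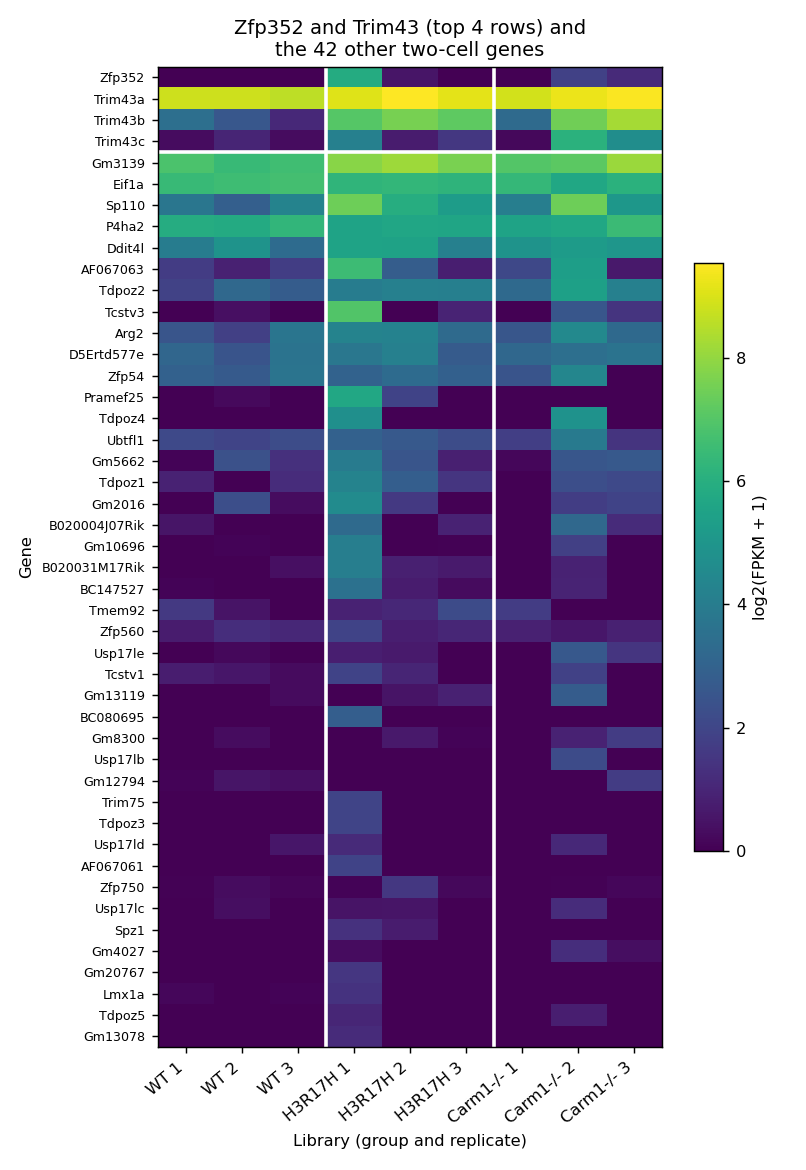
log2(FPKM + 1) (colour) of the 4 genes in the top rows and of the 42 other listed 2-cell genes, ordered by mean, in the 9 libraries (columns, with white lines between groups). Replicate 1 titled H3R17H has 33 of the 42 at 1 FPKM or more, against 12 to 14 in WT and 12 in replicate 1 titled Carm1-/-.

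Of the 42, 19 passed the filter and were tested. In H3R17H against WT 16 had higher and 3 lower differences (47.7% of all tested genes were higher), with a median difference of 1.18 in log2(FPKM + 1), beside -0.03 over all tested genes. In Carm1-/- against WT the counts were 14 and 5 (46.3% of all were higher) and the median 0.53, beside -0.04. A gene of this kind that is low in WT can pass the filter only through the edited libraries, so these directions describe the list and support nothing. In limma 0 of the 19 passed at an adjusted p of 0.05 in either comparison. Without adjustment, at p under 0.05, H3R17H against WT had 4 higher and 0 lower, beside 6.41% and 7.75% of all tested genes. In Carm1-/- against WT 3 were higher and 1 lower, beside 5.25% and 6.19%. Without overlap with WT, 4 of the 19 were higher and 2 lower in H3R17H, beside 13.3% and 15.6% of all tested genes. In Carm1-/- 3 were higher and 1 lower in this way, beside 6.91% and 9.71%. The H3R17H median rested in part on 1 library and was 0.36 without replicate 1 of that title. The Carm1-/- median was 1.01 without replicate 1 of that title and 0.14 without replicate 2, so it too rested in part on single libraries.

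**Figure D4:**
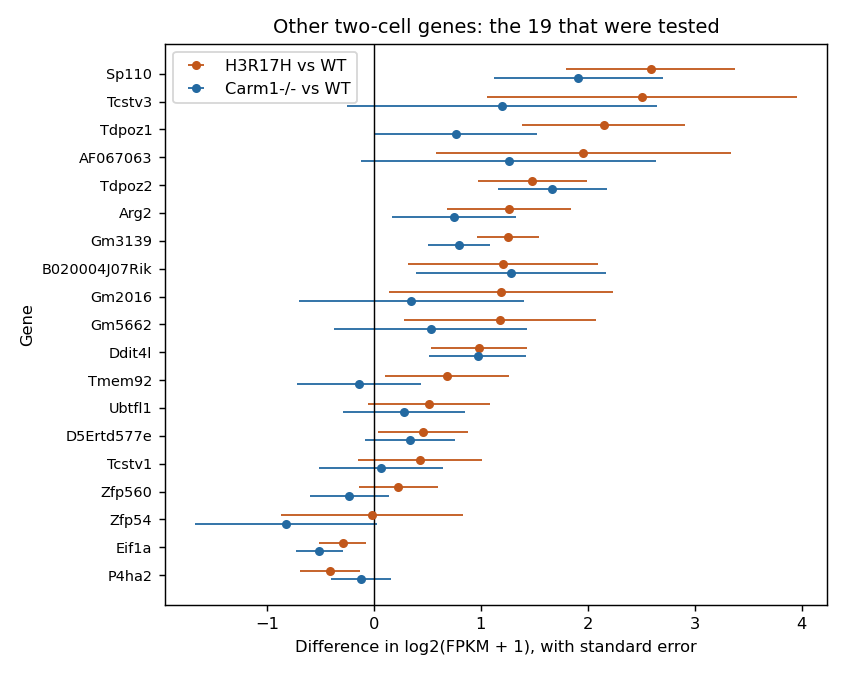
Difference from WT in log2(FPKM + 1) (horizontal axis, points with standard errors from limma) of the 19 tested genes of the wider 2-cell list (vertical axis), for the libraries titled H3R17H and Carm1-/-. Of these, 16 and 14 lie above 0, Sp110 at 2.59 and 1.91, and none passed an adjusted p of 0.05.

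Regulators of the programme were mostly level between groups. Of 48 symbols 46 were tested, and the median difference was 0.13 in H3R17H and 0.03 in Carm1-/- against WT. In limma 0 passed. Before adjustment, 2 of the 46 were higher and 2 lower at p under 0.05 in the former, beside 6.41% and 7.75% of all tested genes, and 1 and 2 in the latter, beside 5.25% and 6.19%. Without overlap with WT, 9 were higher and 4 lower in H3R17H, beside 13.3% and 15.6% of all tested genes. In Carm1-/- 4 were higher and 3 lower in this way, beside 6.91% and 9.71%. DPPA2 and DPPA4, chromatin proteins that activate Dux in embryonic stem cells, were abundant in every library. Dppa2 ran from 305.9 to 392.6 FPKM in WT, from 437.4 to 569.3 FPKM in H3R17H, without overlap, and from 292.2 to 519.7 FPKM in Carm1-/-. Dppa4 ran from 207.4 to 269.8 FPKM in WT, from 269.9 to 311.9 FPKM in H3R17H and from 301.35 to 336.8 FPKM in Carm1-/-. Neither edited group overlapped with WT for Dppa4, H3R17H by a very small margin (269.91 against 269.82 FPKM). Dppa2 differed by 0.5 (SE 0.23) and 0.14 (SE 0.23), and Dppa4 by 0.22 (SE 0.18) and 0.37 (SE 0.18). Trp53, which encodes p53, differed by 0.81 (SE 0.31, limma adjusted p = 0.306) and 0.41 (SE 0.31, limma adjusted p = 0.626), and was above WT without overlap in H3R17H only. Dux itself was not among the listed genes and was not analysed here.

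Obox6, of the oocyte-specific homeobox family, varied widely between libraries. It was at 36.99, 14.45 and 16.41 FPKM among WT libraries, against 177.5, 62.74 and 21.97 FPKM in the libraries titled H3R17H and 12.29, 264.2 and 120.3 FPKM in those titled Carm1-/-. Replicate 2 titled Carm1-/- and replicate 1 titled H3R17H were again the highest libraries, and replicate 1 titled Carm1-/- was the lowest of all 9. The differences were 1.56 (SE 1.01, limma adjusted p = 0.5) and 1.8 (SE 1.01, limma adjusted p = 0.502). The latter was 3.05 without replicate 1 titled Carm1-/- (limma adjusted p = 0.048, range over the alternatives 0.048 to 0.849). With 1 library left out at a time it ran from 0.89 to 3.05. Tbx3, a T-box factor, and Lin28a, an RNA-binding protein, were named after their values were seen. Tbx3 differed by 1.65 (SE 0.38, limma adjusted p = 0.209) in H3R17H, and Lin28a by 1.91 (SE 0.6, limma adjusted p = 0.3) in Carm1-/-. Setdb1, Myc and Hdac2 of the same list, named in the same way, were lower. Setdb1 differed by -0.8 (SE 0.35, limma adjusted p = 0.344) in H3R17H. In Carm1-/- Myc differed by -1.68 (SE 0.62, limma adjusted p = 0.368) and Hdac2 by -0.59 (SE 0.24, limma adjusted p = 0.397). Carm1, also on the list, differed by -2.18 (SE 0.42, limma adjusted p = 0.169) in H3R17H. The abundant repressors and cofactors Hdac1, Trim28, Ncl and Dmap1 differed from WT by -0.21 to 0.35, none past the threshold.

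Oocyte genes were also measured, because RNA of oocytes or polar bodies could add to early-stage transcripts. Of 28 symbols 14 were listed, and 5 or 6 of them reached 1 FPKM in WT, 5 to 8 in the libraries titled H3R17H and 6, 12 and 7 in replicates 1 to 3 titled Carm1-/-. Dppa3, Khdc3 and Ooep, which embryos retain, made up most of the summed level, and the other 11 summed to 7.22 to 9.82 FPKM in WT, 7.4 to 12.1 FPKM in H3R17H and 15.3 to 56.6 FPKM in Carm1-/-. Zp3, an egg coat protein, was at 0.27 FPKM or less in WT, at most 0.66 FPKM in H3R17H, and at 1.8, 19.98 and 4.73 FPKM in replicates 1 to 3 titled Carm1-/- (difference 2.61, SE 0.61; limma adjusted p = 0.206; 0.0148 to 0.638 over the alternatives). Zp2, another egg coat protein, was at 0.03 FPKM or less in WT, at 1.03, 0 and 0 FPKM in replicates 1 to 3 titled H3R17H and at 0.47, 2.05 and 2.29 FPKM in those titled Carm1-/-. Oas1d (9.14 FPKM) and Figla (4.24 FPKM) were also highest in replicate 2 titled Carm1-/-, the library with the most Trim43c and Obox6. In replicate 1 titled H3R17H, with the most Zfp352, Zp3 was at 0.15 FPKM and Oas1d was listed at 0, while Zp2 (1.03 FPKM) and Padi6 (5.58 FPKM, against at most 1.68 in WT) were at their highest level of that title. Dppa3 and Khdc3 differed from WT by at most 0.2 in either direction. Ooep differed by -1.06 (SE 0.55) in H3R17H and -0.74 (SE 0.55) in Carm1-/-, and Padi6 by 1 (SE 0.5) and 0.76 (SE 0.5), none of which passed. The part of oocyte RNA in the levels of the 4 genes was not tested.

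Among all tested genes other than predicted models, those most like the mean of the 4 genes over the 9 libraries were Polr1c, Sox15, Cdk2ap1, Irak1bp1, Tomm20, Sfn, Fam103a1, Dnajb9, Dnajc15 and Ubxn1. Likeness was Pearson's r of log2(FPKM + 1) with the mean of the standardized values of the 4 genes, and it ran from 0.941 to 0.974. These values are high by choice, as the 10 highest were taken. The mean leans to the Trim43 genes, which are near-copies, and Zfp352, high in a single library, did not share their pattern. Likeness to each gene alone was not measured. Spearman's rho was 0.767 to 0.967, and r without the 2 libraries farthest from the median 0.908 to 0.987. The 9 points share 3 groups and their depth, so r describes these libraries only. Sox15, a transcription factor of the SOX family, was at 47.34, 40.26 and 46.01 FPKM among WT libraries, against 195.0, 153.2 and 85.45 FPKM in H3R17H and 49.76, 259.5 and 165.9 FPKM in Carm1-/-. Polr1c, a subunit of RNA polymerases I and III, was at 83.08 to 87.42 FPKM in WT and at 93.04 FPKM in replicate 1 titled Carm1-/-, with 103.8 to 158.2 FPKM in the other 5 edited libraries. Dnajb9, a chaperone of the endoplasmic reticulum, was at 7.63 to 10.14 FPKM in WT, 12.66 to 38.11 FPKM in H3R17H and 5.41, 45.61 and 44.89 FPKM in Carm1-/-. The choice of these 10 rests on single libraries: without replicate 2 titled Carm1-/-, 2 of the 10 were again among the 10 most alike.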

How the data were processed

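The authors deposited FPKM values in 1 table whose columns are the 9 libraries, matched to samples by their descriptions. Bowtie 0.12.2, mm10 and GRCm38 are named, without roles, per the submitters' processing notes. Not given in the sources used here were the quantifier, annotation, strand setting and filter. Low FPKM values showed no steps of whole reads, so depth is unknown, no counting interval is given, and a value of 0 can be a failed estimate.

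Values were analysed as log2(FPKM + 1), which understates changes of low genes. The 11850 of 16070 genes that reached 1 FPKM in 3 or more libraries entered 1 limma fit of all 9 libraries with an intensity trend (R 4.3.3, limma 3.58.1), with Benjamini-Hochberg adjustment over all of them and a threshold of 0.05. The fit was tested on simulated data. Tables used Python 3.11.15 with pandas 2.3.3, alignments Biopython 1.88. Transcripts and positions are from GENCODE M21, promoters from RefSeq GRCm38.p6.

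The members and lists were chosen with earlier results of these data known. Named were the members, the most abundant genes of each list (12 of the 2-cell list, 8 each of regulators and oocyte genes), any that passed, Dppa2, Dppa4 and Carm1, and the 10 genes most like the members. The 7 Trim43 neighbours, Xist, Zp2, Tbx3, Lin28a, Setdb1, Myc and Hdac2 were named after their values were seen. Alternatives changed the pseudocount, filter, scaling, trend, samples in the fit, a replicate block and each library in turn.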

Additional observations from a re-analysis of the deposited data

Results flagged for a closer look

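Tle6, a maternal gene of the subcortical complex of the egg, had means on opposite sides of WT in the 2 edited groups. WT libraries held 6.75, 5.18 and 4.59 FPKM, and the mean of the libraries titled H3R17H was lower by a difference of -2.82 FPKM, with all 3 libraries below the WT mean. The mean of the libraries titled Carm1-/- was 3.01 FPKM higher, with all 3 above it. In log2(FPKM + 1) these differences were -0.86 (SE 0.35; limma adjusted p = 0.326) and 0.53 (SE 0.35; limma adjusted p = 0.571), neither past the threshold. The direct comparison of Carm1-/- with H3R17H gave a difference of 1.39 in log2(FPKM + 1) (SE 0.35; limma adjusted p = 0.383), not past the threshold.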

How the results depend on the processing

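Without depth, and with 3 libraries a group, no level near 0 FPKM can be told from a failed estimate, and no call rests on counts. In H3R17H against WT limma called 0 genes, against 240 with only the groups compared and 1 with a pseudocount of 5; leaving out 1 library gave 0 to 125, with 125 without replicate 1 titled Carm1-/-, 4 without replicate 2 of that title and 2 without WT replicate 1. In Carm1-/- against WT it called 0, against 1 with a pseudocount of 0.1, and 0 to 549 with 1 library left out, the highest again without replicate 1 titled Carm1-/-. In Carm1-/- against H3R17H it called 0, against 1 with a pseudocount of 0.1 or of 5, 2 with median-of-ratios scaling or quantile normalization, 3 with no trend, and 0 to 10 with 1 library left out, with 10 without replicate 1 titled Carm1-/- and 1 without WT replicate 1. The median of the 2-cell list was 0.36 to 1.43 in H3R17H against WT, 0.14 to 1.01 in Carm1-/- against WT and -0.97 to -0.02 in Carm1-/- against H3R17H with 1 library left out. The cause of these changes was not tested.

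Each difference of Trim43a, Trim43b and Trim43c from WT stayed above 0 under all 18 alternatives. The ranges were 0.35 to 0.6, 4.02 to 5.43 and 0.59 to 2.52 in H3R17H. In Carm1-/- they were 0.33 to 0.64, 3.01 to 5.49 and 1.88 to 4.83. The genes were chosen with these contrasts known, so the steady sign is a description and supports nothing. Between Carm1-/- and H3R17H the sign changed for Trim43b (-0.92, 0.6 without replicate 1 of Carm1-/-), Zfp352 (-1.14, 0.74 without replicate 1 of H3R17H) and Trim43a (-0.04, 0.12 without replicate 1 of Carm1-/- and 0.1 without replicate 2 of H3R17H). Some other differences changed sign, and the cause was not tested. Zfp54 in H3R17H against WT became 0.01 with median-of-ratios scaling, 0.02 with quantile normalization, 0.26 without WT replicate 3, and 0.02 and 0.06 without replicates 1 and 3 of H3R17H; leaving out 1 library gave -0.22 to 0.26. In Carm1-/- against WT Zfp54 became 0.33 and Dppa2 -0.07 without replicate 3 of Carm1-/-, AF067063 -0.07 without replicate 2, and P4ha2 0.07 without replicate 1 and 0.01 without WT replicate 3. Leaving out 1 library gave -1.87 to 0.33 for Zfp54, -0.07 to 0.34 for Dppa2, -0.07 to 2.28 for AF067063 and -0.42 to 0.07 for P4ha2. With the replicate number as a block limma called 0 genes in each comparison, and same-numbered libraries did not deviate together, with correlations of -0.05 to 0.18, so the numbers do not pair the libraries. Of the 10 genes most like the members, 6 to 10 were kept under the other scales and filters and 2 to 6 with 1 library left out, alternatives chosen after seeing the data.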
